A study of Mus musculus with 12 samples.

Results

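Collagens are secreted or membrane-anchored proteins whose chains wind into a triple helix and form much of the extracellular matrix. They were followed here through the reprogramming of mouse embryonic fibroblasts into induced pluripotent stem cells. All genes whose symbol is Col, a number, the letter a and a number were taken, which gave 44 of the 37583 genes in the count tables. They comprise 11 fibrillar chains, 6 basement membrane chains of type IV, 9 FACIT chains (fibril-associated collagens with interrupted helices), 4 transmembrane chains, 6 chains of type VI, 2 multiplexins, 3 short-chain network formers and 3 others. Poly-A RNA-seq had been made from 12 libraries, 2 in each of 6 groups, all of strain 129SV/Jae/C57BL6J. MEF were embryonic fibroblasts in MEF media. The 4 sorted groups came from cultures in ES media with dox and AA and all carried the surface antigen SSEA1. On day 3, d3_Eff cells were CD73+ and Sca1-, and d3_Ineff cells were CD73- and Sca1+. On day 6, d6_Eff cells were EpCAM+ and Sca1-, and d6_Ineff cells were EpCAM- and Sca1+. The gates thus used CD73 on day 3 and EpCAM on day 6, so day and sort marker cannot be told apart. The iPSC were grown in ES media. Medium, dox, AA and sorting changed together with the stage, so comparisons with MEF or iPSC cannot tell these apart. The titles of MEF and iPSC also carry a 3/4 mark whose meaning is not given, and neither the transgene nor its driver is named, nor are separate cultures or animals. The labels call the sorted groups Eff and Ineff, and the comparisons address how the collagen programme of the fibroblast differs along and between these routes.

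Fibrillar collagens such as types I, III and V are the tensile fibres of connective tissue and the main matrix product of fibroblasts. Type IV collagen builds the network of basement membranes, type VI forms beaded microfibrils around cells, and FACIT collagens sit on the surface of fibrils. Transmembrane collagens such as type XVII, a component of hemidesmosomes, hold cells to their matrix. The chains need prolyl and lysyl hydroxylation and the chaperone HSP47 in the endoplasmic reticulum, proteolytic removal of propeptides outside the cell, and crosslinking by lysyl oxidases.

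The bases before the start site are shown for 3 collagens whose levels took different courses. Col1a2 and Col3a1 are fibrillar genes that were high in MEF, of which Col3a1 was called higher in d6_Ineff than in d3_Ineff and Col1a2 was not, and Col17a1 is the collagen that was higher in d6_Eff than in d6_Ineff. Each sequence is the 250 bases before the RefSeq start on GRCm38.p6, at chr6:4505368-4505617, plus strand for Col1a2, at chr1:45311288-45311537, plus strand for Col3a1 and at chr19:47692043-47692292, minus strand for Col17a1. Capitals mark 3 motifs found on either strand. One is CCAAT, the CCAAT box. Another is the GC box, searched as GGGCGG. The remaining one is the TATA motif, searched as TATAAA. A motif on the other strand is printed as its reverse complement.
Col1a2: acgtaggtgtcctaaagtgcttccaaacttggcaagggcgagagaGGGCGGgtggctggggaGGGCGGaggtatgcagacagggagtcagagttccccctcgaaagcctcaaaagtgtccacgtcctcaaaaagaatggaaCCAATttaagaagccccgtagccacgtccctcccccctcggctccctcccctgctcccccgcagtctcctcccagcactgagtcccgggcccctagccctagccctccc
Col3a1: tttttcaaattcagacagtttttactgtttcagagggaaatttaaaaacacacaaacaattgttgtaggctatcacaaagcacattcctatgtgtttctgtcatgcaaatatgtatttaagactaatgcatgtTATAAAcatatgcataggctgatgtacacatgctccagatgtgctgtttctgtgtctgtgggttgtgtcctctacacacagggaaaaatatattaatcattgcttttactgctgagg
Col17a1: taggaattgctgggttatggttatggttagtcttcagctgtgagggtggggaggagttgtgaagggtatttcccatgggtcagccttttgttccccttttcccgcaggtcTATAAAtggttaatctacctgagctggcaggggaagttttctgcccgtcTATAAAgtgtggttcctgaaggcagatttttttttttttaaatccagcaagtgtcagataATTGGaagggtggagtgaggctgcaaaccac
The Col1a2 window held CCAAT with its first base at -109 and GGGCGG at -205 and -188, counted from the start. The Col3a1 window held TATAAA at -117. In the Col17a1 window TATAAA began at -140 and -91, and CCAAT on the other strand at -31. RefSeq windows were found for 35 of the 44 collagens, 38 windows in all. CCAAT was in 13 of them (34.2%), against 33.8% of all 32851 windows of this length. GGGCGG was in 22 (57.9%), against 32.7% of all windows, and TATAAA in 5 (13.2%), against 12.4%. These matches describe the letters in the windows and are no evidence of binding.

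Levels are given as CPM, read counts scaled to the library's total in genes after TMM normalisation, for replicate 1 and then replicate 2. The libraries held 9284060 to 22763548 reads in genes. Collagen reads made up 5.44% and 1.06% of gene counts in the MEF libraries, 0.216% and 0.175% in d3_Eff, 0.313% and 0.227% in d3_Ineff, 0.128% and 0.143% in d6_Eff, 0.430% and 0.468% in d6_Ineff, and 0.0284% and 0.0289% in iPSC. MEF replicate 2 stood apart, with the lowest depth and 47.2% of its uniquely placed reads outside genes, as did d6_Eff replicate 2 with 24.1%, against 5.10% to 11.7% in the other 10 libraries. All 24 collagens that averaged at least 5 CPM in MEF were lower in MEF replicate 2, by a median log2 ratio of -2.19 and a range of -3.96 to -0.50 (0.5 CPM added). Among all 10365 genes at that level the median was -0.15, among the 2039 with a transcript of at least 5000 bases it was -0.93, and among the 8215 shorter ones 0.0057. Fibroblast markers differed less, with 5 of 9 lower in replicate 2 and a median of -0.12. The cause was not tested. Where leaving out 1 library moved a called log2 fold change by more than 1.5-fold, the value without that library stands in the same brackets, unless its group then had no reads. The marker sums went with the labels of MEF and iPSC. The 9 fibroblast markers summed to 8325 and 9215 CPM in MEF and to 112 and 110 CPM in iPSC. The 7 pluripotency markers summed to 4045 and 4009 CPM in iPSC and to 1.96 and 1.26 CPM in MEF. Presence of reads alone did not separate the groups, since all 9 fibroblast markers also had reads in both d6_Ineff libraries.

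Of the 44 collagens, 26 averaged at least 5 CPM in a group and are described by name. Another 10 passed the filter on low counts but reached at most 4.31 CPM, and 8 were too low to test (at most 0.795 CPM). Tests are edgeR quasi-likelihood tests across all 12 libraries and 16240 genes, with a gene called where its p, adjusted by Benjamini-Hochberg, was below 0.05, and log2 fold changes are given ± SE. Since the labels do not say that the 2 libraries of a group come from separate cultures or animals, these p-values measure only the spread between these libraries, which may be technical. Fold changes of genes without reads in a group are given as bounds against a floor of 3 counts over that group, which covers counting error only.

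The make-up of the collagen transcripts differed between the groups. To weigh chains against each other, CPM were divided by transcript length in kilobases and summed by type. The sum over all collagens was 6087 ± 5281 CPM per kilobase in MEF, 347 ± 34.1 in d3_Eff, 488 ± 96.9 in d3_Ineff, 208 ± 19.1 in d6_Eff, 681 ± 23.6 in d6_Ineff and 52.5 ± 2.17 in iPSC (SD, n = 2 each). Fibrillar chains made up 87.5% and 87.1% of it in the MEF libraries, 16.1% and 14.4% in d3_Eff, 30.7% and 32.5% in d3_Ineff, 19.2% and 11.0% in d6_Eff, 34.2% and 29.5% in d6_Ineff, and 6.75% and 6.08% in iPSC. The fibrillar shares of the 2 MEF libraries were close, while short-chain collagens held 1.14% of the sum in MEF replicate 1 and 3.23% in replicate 2. Type IV chains, 3.04% and 1.70% in MEF, were the largest type in d3_Eff (45.9% and 43.6%), d6_Eff (53.9% and 62.9%) and d6_Ineff (40.1% and 43.0%). In d3_Ineff, type IV held 28.4% and 27.3% and type VI 35.4% and 34.1%. Type VI made up 33.0% and 36.9% in d3_Eff, 10.9% and 8.44% in d6_Eff, 17.0% and 18.9% in d6_Ineff, and 1.29% and 1.78% in iPSC.

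In iPSC, multiplexins held 68.1% and 66.9% of the collagen level per kilobase, almost all of it Col18a1, and FACIT chains 12.2% and 15.8%. Multiplexins had held 0.483% and 0.404% in MEF. Transmembrane chains reached 4.35% and 6.02% in d6_Eff, almost all of it Col17a1, and at most 2.23% in any other library. With the union of all annotated exons as the length, the fibrillar share was 85.7% in MEF, 11.4% in d3_Eff, 23.1% in d3_Ineff, 11.2% in d6_Eff, 24.3% in d6_Ineff and 5.63% in iPSC, and the multiplexin share in iPSC was 66.1%. With 2 libraries a group, an exact permutation test of such a share cannot go below p = 0.333, and none is given. Fewer cells of a type and less RNA per cell cannot be told apart in these bulk samples.

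**Figure D1:**
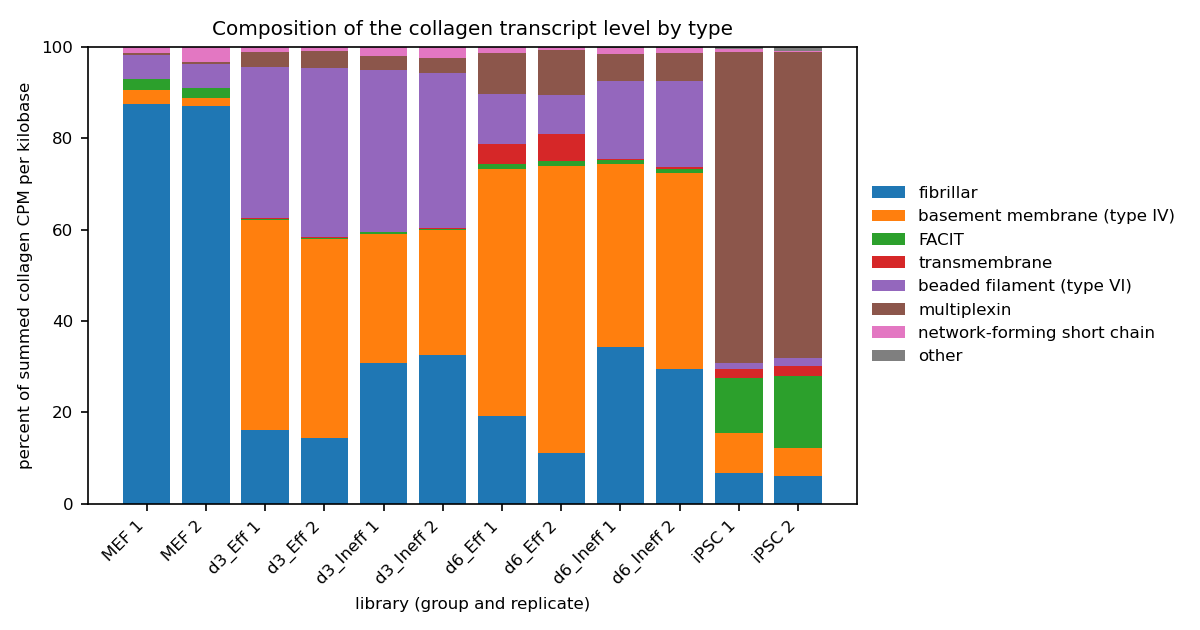
Share of each collagen type in the summed collagen level (CPM per kilobase of transcript), as stacked bars in percent for each of the 12 libraries in the order of the course. Fibrillar chains fill 87.5% and 87.1% of the MEF bars, type IV is the largest part in d3_Eff and both day 6 groups, and multiplexins fill 68.1% and 66.9% of the iPSC bars.

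Counted by comparison, 1 collagen was higher and 17 lower in d3_Eff than in MEF, where 18% of all genes tested were higher and 18.6% lower (36.5% called in all). In d3_Ineff against MEF, 2 were higher and 17 lower, against 15% higher and 15% lower among all genes (30% in all). The median log2 fold change of the 36 collagens tested was -3.59 in d3_Eff and -2.88 in d3_Ineff, or -3.14 and -2.68 with groups that had no reads set to their floor, while the median of all genes was 0 in both. Both comparisons use the same MEF libraries, which also differed from the day 3 gates in medium, dox, AA and sorting. These cannot be told apart from the course of reprogramming. Without MEF replicate 1 the counts were 4 higher and 17 lower in d3_Eff and 4 and 16 in d3_Ineff, and without MEF replicate 2 they were 1 and 25 in d3_Eff and 2 and 23 in d3_Ineff. The median over the 18 named collagens called in d3_Eff was -5.15 with both MEF libraries, -4.21 without replicate 1 and -5.87 without replicate 2. Over the 19 called in d3_Ineff the medians were -4.47, -2.94 and -5.25. Of the 9 fibroblast markers, 7 were lower in each day 3 gate than in MEF, and the list summed to 5060 and 4740 CPM in d3_Eff, 8013 and 7732 CPM in d3_Ineff, and 8325 and 9215 CPM in MEF, most of it Vim. All 5 smooth muscle markers were lower in each day 3 gate, with a sum of 1022 and 1039 CPM in d3_Eff, 3461 and 3671 CPM in d3_Ineff, and 7868.5 and 11786 CPM in MEF. Of 6 neural and Schwann markers, 4 were tested and 3 were lower in each day 3 gate. Their sum was 28.3 and 20.5 CPM in d3_Eff, 26.0 and 25.6 CPM in d3_Ineff, and 337 and 176 CPM in MEF. Other lists were higher on day 3. Of 6 endothelial markers, 5 were tested and 3 were higher in each day 3 gate. This list, nearly all of it Tek on day 3, summed to 147 and 116 CPM in d3_Eff, 161 and 154 CPM in d3_Ineff, and 3.72 and 2.09 CPM in MEF. Of 6 leukocyte markers, 4 were tested and 1 (Laptm5) was higher in each day 3 gate. The leukocyte list summed to 262 and 263 CPM in d3_Eff, 368 and 314 CPM in d3_Ineff, and 2.89 and 2.23 CPM in MEF. The part of these markers in the collagen fall was not tested.

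Between the day 3 gates, edgeR called no collagen in either direction, against 0.16% of genes higher and 0.24% lower in d3_Eff (0.4% in all), with 3 collagens at an unadjusted p under 0.05. DESeq2 called 2, both lower in d3_Eff. Of the 36 tested, 24 had a negative log2 fold change and 10 a positive one, with a median of -0.63 (-0.33 with groups that had no reads at their floor). A fit of the 4 day 3 libraries alone called 10, all lower in d3_Eff, and the fit without either MEF library called 7 without replicate 1 and 7 without replicate 2, all lower. The fibroblast list summed to 5060 and 4740 CPM in d3_Eff and 8013 and 7732 CPM in d3_Ineff.

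In d6_Eff, 1 collagen was higher and 16 were lower than in d6_Ineff, against 5.38% higher and 9.25% lower among all genes (14.6% in all), with a median of -1.92 over the 36 tested. By type, of the chains tested, 6 of 9 fibrillar, 1 of 5 type IV, 1 of 7 FACIT and 4 of 5 type VI chains were lower. So were 1 of 2 multiplexin, 2 of 3 short-chain and 1 of 2 other chains, and 1 of 3 transmembrane chains was higher. The counts were 23 without either MEF library, 8 without d6_Ineff replicate 1, 7 without d6_Ineff replicate 2, 8 without d6_Eff replicate 1 and 5 without d6_Eff replicate 2, refits that leave a lone library in the gate. Col1a2, Col6a1, Col6a3, Col8a1 and Col15a1 were called in all 12 refits. Of the 9 fibroblast markers, 5 were lower in d6_Eff and none higher, their sum was 584 and 399.8 CPM in d6_Eff and 4436 and 4224 CPM in d6_Ineff, and Vim gave -3.16 ± 0.24 (adjusted p = 3.89e-05) and Prrx1 -3.13 ± 0.26 (adjusted p = 5.43e-05). Of 7 pluripotency markers, 3 were higher and 1 lower in d6_Eff. Of 5 smooth muscle markers, Acta2, Tagln and Cnn1 were lower and Des was higher in d6_Eff, and the list summed to 139.8 and 80.1 CPM in d6_Eff and 1461 and 1357 CPM in d6_Ineff. Endothelial markers, mostly Tek, summed to 75.6 and 75.5 CPM in d6_Eff and 153 and 158 CPM in d6_Ineff. Leukocyte markers summed to 203 and 205 CPM in d6_Eff and 478 and 489.5 CPM in d6_Ineff, nearly all of it Laptm5, while Ptprc, Adgre1 and Cd3e had no reads in any day 6 library. The part of these markers in the collagen difference was not tested.

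**Figure D2:**
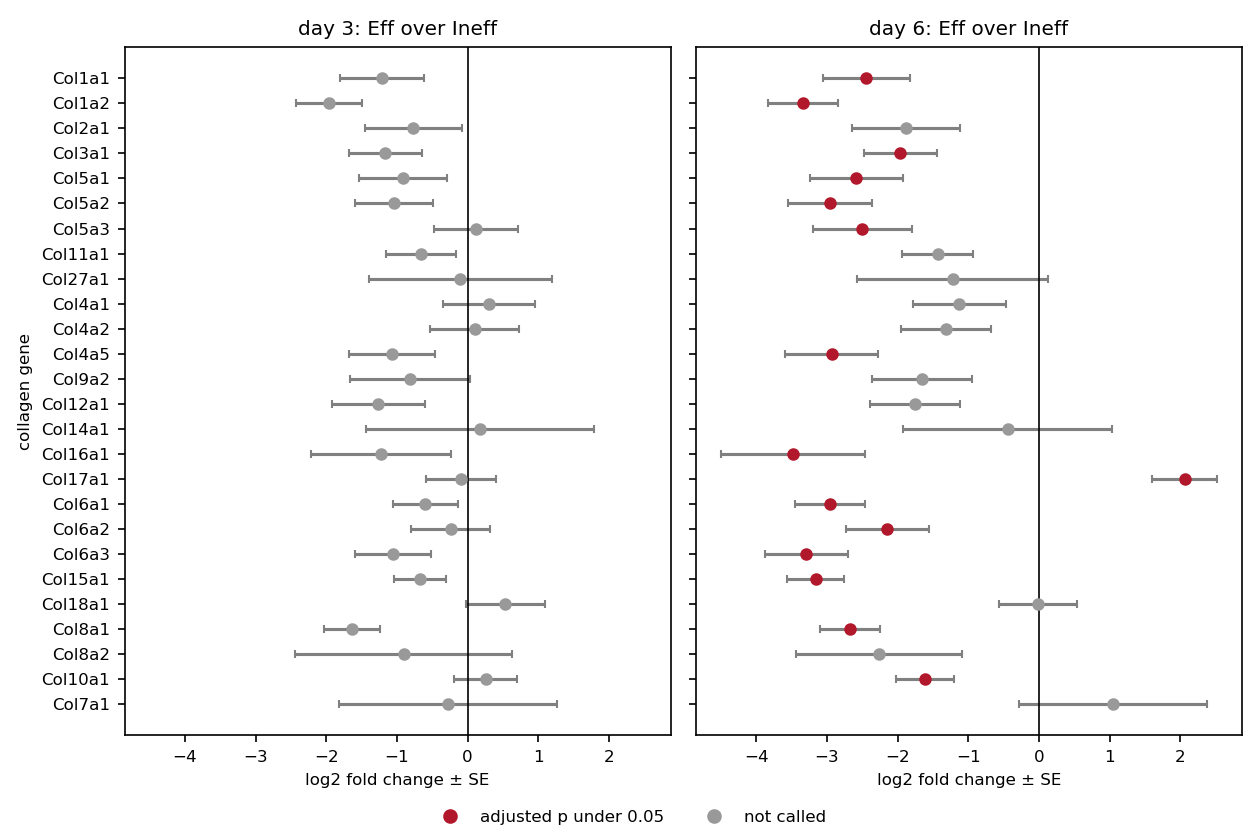
Log2 fold change of Eff over Ineff with SE for the 26 named collagens, on day 3 in the left panel and day 6 in the right, with red points for an adjusted p under 0.05. No point is red on day 3, and on day 6 Col17a1 is the 1 red point right of 0.

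The gap between gates was not called as different between days for 35 of the 36 collagens tested. Col15a1 was the exception (1 lower, against 1.09% of genes lower and 0.296% higher, 1.39% in all), and that count was near the share of all genes. The median of the change was -1.17 on the log2 scale over the collagens and -0.0068 over all genes. Without either MEF library 12 were called, and without any 1 of the 8 day 3 and day 6 libraries edgeR called none; all 12 libraries gave 10 at an unadjusted p under 0.05, and DESeq2 called 5. Because the gates of day 3 and day 6 were sorted with different markers, differences between days may reflect time or gate definition. Over time in the Eff gate, 1 collagen was higher on day 6 than on day 3 and 6 were lower, against 4.24% and 4.87% of genes (9.11% in all). Without either MEF library 15 were called, and 2 or 3 without 1 of the 4 libraries compared. In the Ineff gate, 5 were higher (Col3a1, Col10a1, Col17a1, Col18a1 and Col26a1) and none lower, against 3.19% and 1.23% of genes (4.42% in all), and the median over the tested collagens was 1.28. DESeq2 called 9 higher and 1 lower there. The count was 16 without MEF replicate 1, 17 without MEF replicate 2, 0 without d3_Ineff replicate 1 or d3_Ineff replicate 2, 1 without d6_Ineff replicate 1 or d6_Ineff replicate 2, and 3 without either iPSC library.

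At the end of the course, 4 of the 36 collagens tested were higher and 16 lower in iPSC than in d6_Eff. Among all genes 13.6% were higher and 15.9% lower (29.6% in all), so the count of higher collagens was near that of all genes. The 4 were Col9a2, Col13a1, Col6a5 and Col26a1, of which only Col9a2 averaged at least 5 CPM in a group. Against MEF, 4 were higher (Col9a2, Col9a3, Col13a1 and Col6a4) and 23 lower in iPSC, against 26% and 26.7% of genes (52.7% in all), with a median of -6.24 over the tested collagens, or -5.38 with groups that had no reads at their floor, and 0.04 over all genes. Over the 23 named collagens called, the median was -7.98 with both MEF libraries, -6.85 without replicate 1 and -8.74 without replicate 2. All 9 fibroblast markers were lower in iPSC than in MEF and 6 lower than in d6_Eff, with a sum of 112 and 110.2 CPM in iPSC, 584 and 399.8 CPM in d6_Eff, and 8325 and 9215 CPM in MEF. All 5 smooth muscle markers were lower in iPSC than in MEF, with a sum of 119 and 69.7 CPM in iPSC and 7868.5 and 11786 CPM in MEF. All 7 pluripotency markers were higher in iPSC than in MEF and than in d6_Eff. The part of these markers in the collagen difference was not tested.

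Of 11 fibrillar chains, 9 were tested. Of these, 8 were lower in d3_Eff than in MEF and the same number lower in d3_Ineff than in MEF, 6 were lower in d6_Eff than in d6_Ineff, and 9 were lower in iPSC than in MEF. Among all genes, 18.6%, 15%, 9.25% and 26.7% were lower, in the same order. No fibrillar chain was called higher in any of these comparisons. Type I collagen, the main fibril protein of skin and bone, is built from Col1a1 (ENSMUSG00000001506) and Col1a2 (ENSMUSG00000029661) chains. Col1a1 had 20038 and 3655 CPM in MEF, 32.0 and 32.0 CPM in d3_Eff and 91.0 and 57.1 CPM in d3_Ineff. It had 56.3 and 30.1 CPM in d6_Eff, 261 and 209 CPM in d6_Ineff and 2.02 and 1.45 CPM in iPSC. Every library after MEF lay below both MEF libraries, and on each day the Eff libraries lay below the Ineff libraries. The log2 fold change of Col1a1 was -8.53 ± 0.81 (adjusted p = 1.55e-05, -6.82 without MEF replicate 1, -9.40 without MEF replicate 2) in d3_Eff and -7.32 ± 0.77 (adjusted p = 4.37e-05, -5.61 without MEF replicate 1, -8.15 without MEF replicate 2) in d3_Ineff against MEF. Between the day 6 gates it was -2.44 ± 0.62 (adjusted p = 0.0231, -3.06 without d6_Eff replicate 1), and in iPSC against MEF -12.71 ± 0.96 (adjusted p = 1.3e-06, -10.99 without MEF replicate 1, -13.52 without MEF replicate 2).

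Col1a2 had 15707 and 4958 CPM in MEF, 165 and 111 CPM in d3_Eff and 595 and 481 CPM in d3_Ineff. It had 82.9 and 45.9 CPM in d6_Eff, 674 and 632 CPM in d6_Ineff and 2.58 and 3.49 CPM in iPSC. Its d6_Ineff libraries lay just above the d3_Ineff ones, while the d6_Eff libraries lay below the d3_Eff ones, and no library after MEF reached either MEF library. Col1a2 was lower than in MEF by a log2 fold change of -6.22 ± 0.57 (adjusted p = 1.22e-05, -5.15 without MEF replicate 1, -6.93 without MEF replicate 2) in d3_Eff and by a log2 fold change of -4.26 ± 0.52 (adjusted p = 0.000119, -3.19 without MEF replicate 1, -4.94 without MEF replicate 2) in d3_Ineff. The day 3 gates did not overlap, but their difference of -1.96 ± 0.47 (adjusted p = 0.128) was not called, whereas the day 6 difference of -3.34 ± 0.50 (adjusted p = 0.00143) was. The ratio of the 2 chains of type I collagen differed between groups. Reads of Col1a1 per read of Col1a2 were 1.28 and 0.737 in MEF, 0.194 and 0.287 in d3_Eff, 0.153 and 0.119 in d3_Ineff, 0.679 and 0.655 in d6_Eff, 0.387 and 0.331 in d6_Ineff, and 0.783 and 0.415 in iPSC. The day 3 ratios lay below all others, and this within-library ratio does not depend on scaling between libraries.

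Type III collagen, a homotrimer of Col3a1 (ENSMUSG00000026043) chains in elastic tissues, was the 1 fibrillar chain called higher on day 6 than on day 3. Col3a1 had 4415 and 1259 CPM in MEF, 9.63 and 5.36 CPM in d3_Eff and 17.9 and 15.7 CPM in d3_Ineff. It had 31.0 and 22.4 CPM in d6_Eff, 110.4 and 98.2 CPM in d6_Ineff and 0.129 and 0.593 CPM in iPSC. The day 6 libraries of each gate lay above the day 3 libraries of that gate. Col3a1 rose in d6_Ineff against d3_Ineff (2.63 ± 0.53, adjusted p = 0.0206), while in d6_Eff against d3_Eff the log2 fold change was 1.83 ± 0.53 (adjusted p = 0.0545) and missed the threshold. Col3a1 was lower in d6_Eff than in d6_Ineff (-1.96 ± 0.52, adjusted p = 0.0273) and lower in iPSC than in d6_Eff (-6.35 ± 0.75, adjusted p = 8.15e-05, -5.48 without iPSC replicate 1, -7.63 without iPSC replicate 2). Its neighbour on chromosome 1 is Col5a2, which lies tail to tail with it 24614 bases away in GENCODE M21.

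Type V collagen controls the diameter of type I fibrils and is built from Col5a1 (ENSMUSG00000026837), Col5a2 (ENSMUSG00000026042) and Col5a3 (ENSMUSG00000004098) chains. Col5a2 had 5009 and 1104 CPM in MEF, 72.1 and 62.1 CPM in d3_Eff and 146 and 130.5 CPM in d3_Ineff. It had 15.7 and 10.5 CPM in d6_Eff, 105 and 99.5 CPM in d6_Ineff and 0.817 and 0.132 CPM in iPSC. Both gates of each day lay below MEF, with the Eff libraries below the Ineff libraries and iPSC at the bottom. In the Eff gate it was lower on day 6 than on day 3 (-2.35 ± 0.58, adjusted p = 0.0279), and in the Ineff gate the log2 fold change was -0.44 ± 0.55 (adjusted p = 0.743). Col5a1 had 4539 and 653 CPM in MEF, 33.3 and 28.7 CPM in d3_Eff and 70.1 and 46.5 CPM in d3_Ineff. It had 14.5 and 21.3 CPM in d6_Eff, 113 and 101 CPM in d6_Ineff and 8.42 and 5.93 CPM in iPSC. All libraries after MEF lay below both MEF libraries, and on each day the Eff libraries lay below the Ineff ones. Both genes were lower in d6_Eff than in d6_Ineff, Col5a2 by a log2 fold change of -2.96 ± 0.60 (adjusted p = 0.00732) and Col5a1 by a log2 fold change of -2.58 ± 0.66 (adjusted p = 0.0231). Col5a1 kept 8.42 and 5.93 CPM in iPSC and was not called between iPSC and d6_Eff (-1.31 ± 0.65, adjusted p = 0.162).

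Col5a3 had 403 and 67.4 CPM in MEF, 10.0 and 10.5 CPM in d3_Eff and 9.45 and 9.41 CPM in d3_Ineff. It had 1.38 and 0.881 CPM in d6_Eff, 6.08 and 6.94 CPM in d6_Ineff and 1.29 and 2.37 CPM in iPSC. The day 3 gates of Col5a3 differed by 0.12 ± 0.60 (adjusted p = 1.0) and were not called, and all 4 day 3 libraries lay between 9.41 and 10.5 CPM. The d6_Eff libraries lay below all day 3 and d6_Ineff libraries. Col5a3 was lower in d6_Eff than in d6_Ineff (-2.50 ± 0.70, adjusted p = 0.0364) and than in d3_Eff (-3.15 ± 0.70, adjusted p = 0.0167). Against MEF, Col5a3 was lower by a log2 fold change of -4.53 ± 0.66 (adjusted p = 0.000327, -2.71 without MEF replicate 1, -5.41 without MEF replicate 2) in d3_Eff and by a log2 fold change of -4.64 ± 0.67 (adjusted p = 0.000372, -2.82 without MEF replicate 1, -5.49 without MEF replicate 2) in d3_Ineff.

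The other fibrillar chains are best known from cartilage. Col2a1, the main collagen of cartilage, averaged 193 ± 203 CPM in MEF, 9.96 ± 0.173 CPM in d3_Eff, 17.0 ± 3.80 CPM in d3_Ineff, 2.17 ± 1.66 CPM in d6_Eff, 8.23 ± 1.55 CPM in d6_Ineff and 4.84 ± 1.54 CPM in iPSC (SD, n = 2 each). Col11a1, which joins type II and type V fibrils, averaged 273 ± 234 CPM in MEF, 22.7 ± 4.64 CPM in d3_Eff, 35.9 ± 5.10 CPM in d3_Ineff, 14.7 ± 2.10 CPM in d6_Eff, 39.5 ± 1.80 CPM in d6_Ineff and 1.12 ± 0.555 CPM in iPSC. Both were lower in each day 3 gate than in MEF, Col2a1 by a log2 fold change of -4.28 ± 0.76 (adjusted p = 0.00119, -2.29 without MEF replicate 1, -5.19 without MEF replicate 2) in d3_Eff and Col11a1 by a log2 fold change of -3.59 ± 0.54 (adjusted p = 0.000371, -2.23 without MEF replicate 1, -4.37 without MEF replicate 2). Neither was called between the day 6 gates (adjusted p = 0.127 and 0.084). Of 8 chondrocyte markers, 4 were lower in each day 3 gate than in MEF. Their sum was 4.99 and 6.24 CPM in d3_Eff, 4.50 and 5.20 CPM in d3_Ineff, and 89.0 and 39.1 CPM in MEF, where Matn1 and Snorc had no reads. Their part in the fall of Col2a1 was not tested. Col27a1 averaged 0.395 ± 0.559 CPM in iPSC and 8.25 ± 10.9 CPM in MEF, with 16.0 CPM in MEF replicate 1 and 0.558 CPM in replicate 2. Its call as lower in iPSC (-4.51 ± 1.48, adjusted p = 0.0242, -0.56 without MEF replicate 1, -5.51 without MEF replicate 2, -3.41 without iPSC replicate 1) was lost without MEF replicate 1 (0.805) or iPSC replicate 1 (0.107), as adjusted p. With only the groups compared in the fit, that call (0.137) and the d3_Ineff call of Col2a1 against MEF (0.059) were lost. Col11a2 and Col24a1 were too low to test.

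**Figure D3:**
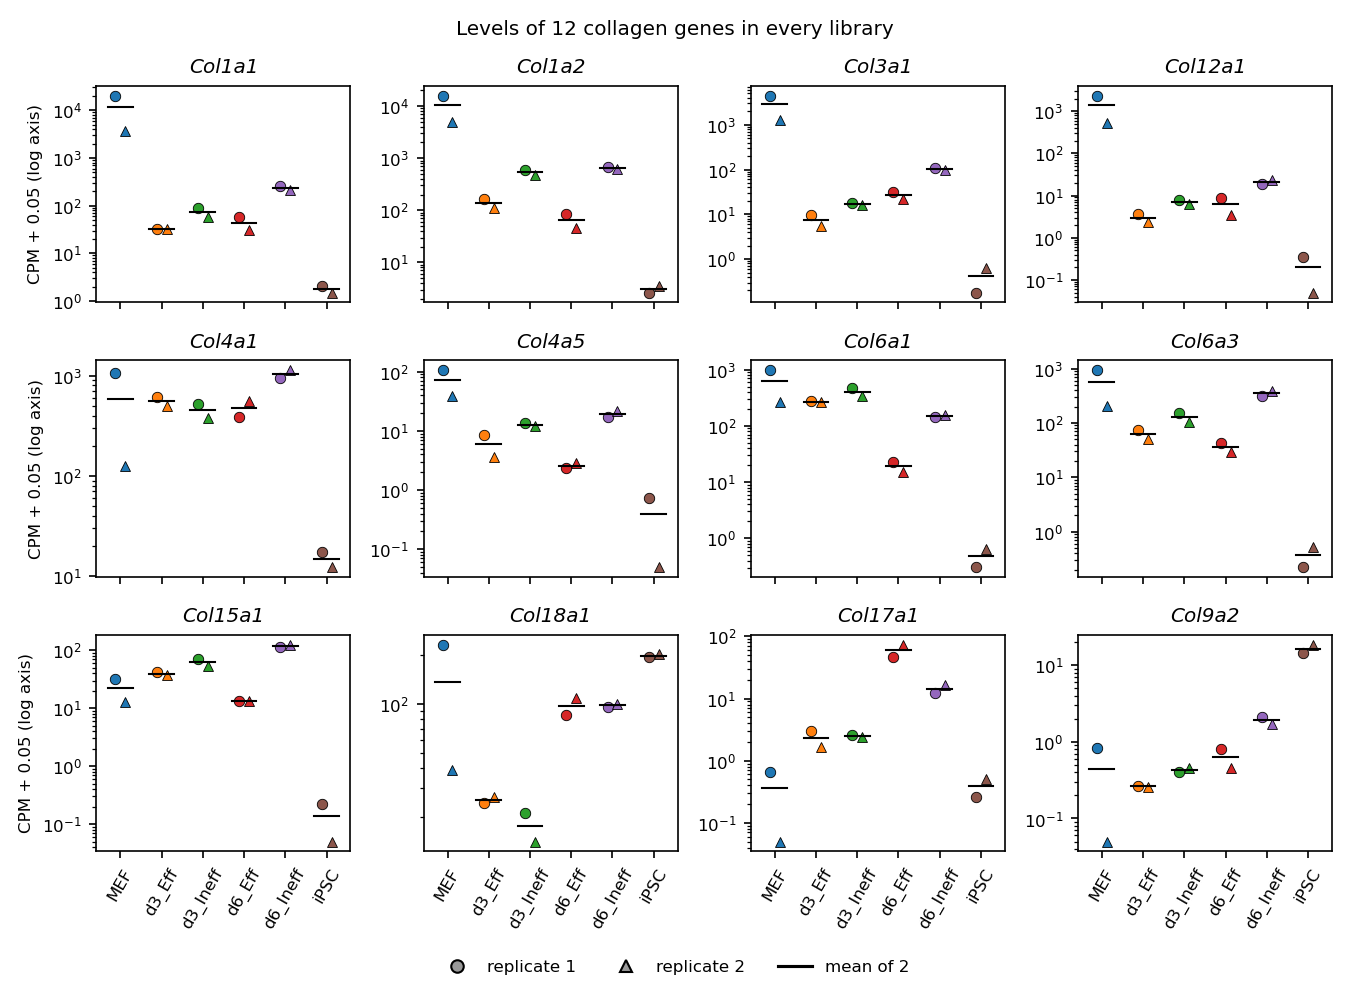
Level of 12 collagen genes in every library (CPM + 0.05 on a log axis), with circles for replicate 1, triangles for replicate 2 and a line at the mean of the 2 libraries of each group. Col1a1 has 20038 and 3655 CPM in MEF and 2.02 and 1.45 CPM in iPSC, Col17a1 is highest in d6_Eff (46.8 and 73.5 CPM) and Col9a2 in iPSC (14.3 and 18.6 CPM).

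In the fibrillar calls between day 6 gates, leaving out a single library lost Col1a1 without d6_Eff replicate 2 or d6_Ineff replicate 1 or 2 (0.0535 to 0.169), where the brackets hold adjusted p. Col3a1 was lost without d6_Eff replicate 1 or 2 or d6_Ineff replicate 1 or 2 (0.0721 to 0.181), and Col5a1 without d6_Eff replicate 1 or 2 or d6_Ineff replicate 1 or 2 (0.0562 to 0.124). Col5a2 was lost without d6_Eff replicate 2 (0.0771), Col5a3 without d3_Eff replicate 2, d6_Eff replicate 1 or 2 or d6_Ineff replicate 1 or 2 (0.0563 to 0.192), and Col1a2 in none of the 12 refits. The rise of Col3a1 in the Ineff gate was lost without d3_Ineff replicate 1 or 2 or d6_Ineff replicate 1 or 2 (0.0761 to 0.198). Over time in the Eff gate, Col5a2 was lost without d3_Eff replicate 1 or 2 or d6_Eff replicate 1 or 2 (0.08 to 0.204) and Col5a3 without d3_Eff replicate 1 or 2 or d6_Eff replicate 1 or 2 (0.0536 to 0.124).

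Of the 6 type IV chains of basement membranes, 5 were tested. Of these, 1 was lower in each day 3 gate than in MEF, 1 in d6_Eff than in d6_Ineff, 3 in iPSC than in d6_Eff and 4 in iPSC than in MEF. Among all genes 18.6% were lower in d3_Eff, 15% in d3_Ineff, 9.25% in d6_Eff, 15.9% in iPSC against d6_Eff and 26.7% against MEF. The day 3 counts of 1 in 5 were near those shares. The common chains Col4a1 (ENSMUSG00000031502) and Col4a2 (ENSMUSG00000031503), which together make the network of nearly all basement membranes, were called in neither day 3 gate against MEF. Col4a1 had 1058 and 127 CPM in MEF, 607 and 502 CPM in d3_Eff and 525 and 376 CPM in d3_Ineff. It had 390.1 and 565 CPM in d6_Eff, 956 and 1134 CPM in d6_Ineff and 17.1 and 12.3 CPM in iPSC. Both day 3 gates lay between the MEF libraries, the d6_Eff libraries lay within the range of the day 3 libraries, and the d6_Ineff libraries, on either side of MEF replicate 1, lay above all the others. Against MEF the log2 fold change of Col4a1 was -0.10 ± 0.65 (adjusted p = 0.945) in d3_Eff and -0.40 ± 0.65 (adjusted p = 0.708) in d3_Ineff. Between the day 6 gates it was -1.13 ± 0.66 (adjusted p = 0.295) and not called, although the gates did not overlap. Col4a1 then fell in iPSC, by a log2 fold change of -5.02 ± 0.78 (adjusted p = 0.000576) against d6_Eff and -5.33 ± 0.79 (adjusted p = 0.000182, -3.09 without MEF replicate 1, -6.22 without MEF replicate 2) against MEF.

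Col4a2 had 786 and 94.8 CPM in MEF, 499.7 and 415 CPM in d3_Eff and 493 and 361 CPM in d3_Ineff. It had 293 and 342 CPM in d6_Eff, 769.5 and 809 CPM in d6_Ineff and 11.0 and 9.29 CPM in iPSC. The day 3 and d6_Eff libraries lay between the 2 MEF libraries, the d6_Ineff libraries near MEF replicate 1, and the iPSC libraries below all others. The 2 genes lie head to head on chromosome 8 with start regions that overlap by 22 bases in GENCODE M21, and counting ignored strand, so reads over those bases cannot be told apart. Reads of Col4a1 per read of Col4a2 stayed between 1.04 and 1.65 in all 12 libraries, with the lowest value in d3_Ineff replicate 2 and the highest in d6_Eff replicate 2. Per kilobase, Col4a1 was the highest of all collagens in d3_Eff (83.8 CPM per kilobase), d6_Eff (72.2) and d6_Ineff (158), in both libraries of each group. In d3_Ineff the highest was Col6a1 in replicate 1 and Col1a2 in replicate 2, and in MEF Col1a1 in replicate 1 and Col1a2 in replicate 2. With the union of all annotated exons as the length, the highest was Col6a1 in both d3_Ineff libraries and Col1a1 in both MEF libraries.

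Col4a5 (ENSMUSG00000031274), a chain of specialised basement membranes such as that of the glomerulus, was the 1 type IV chain called on day 3 against MEF. Col4a5 had 105 and 39.4 CPM in MEF, 8.50 and 3.54 CPM in d3_Eff and 13.3 and 12.1 CPM in d3_Ineff. It had 2.27 and 2.76 CPM in d6_Eff, 16.9 and 21.5 CPM in d6_Ineff and 0.688 and 0 CPM in iPSC. Every library after MEF lay below both MEF libraries, and on each day the Eff libraries lay below the Ineff ones. It was lower than in MEF by a log2 fold change of -3.59 ± 0.65 (adjusted p = 0.00126, -2.68 without MEF replicate 1, -4.22 without MEF replicate 2, -4.43 without d3_Eff replicate 1) in d3_Eff and by a log2 fold change of -2.52 ± 0.61 (adjusted p = 0.0097, -1.62 without MEF replicate 1, -3.12 without MEF replicate 2) in d3_Ineff, and lower in d6_Eff than in d6_Ineff by a log2 fold change of -2.94 ± 0.65 (adjusted p = 0.0124). In iPSC it was lower still, by a log2 fold change of -2.65 ± 0.83 (adjusted p = 0.0324, -1.86 without iPSC replicate 2) against d6_Eff. Col4a6 was called lower in iPSC, where it had no reads, than in MEF (mean 1.73 CPM, at least 22.2-fold lower against a floor of 3 counts over the group, adjusted p = 0.043). Its 67 MEF reads were all from replicate 1, and the call was lost without MEF replicate 1, d3_Eff replicate 2, d3_Ineff replicate 1 or 2 or iPSC replicate 1 or 2 (0.0506 to 1.0), with adjusted p in brackets. Col4a4 was not called in any comparison, and Col4a3 was too low to test. Leaving out a library lost the d3_Ineff call of Col4a5 without d3_Ineff replicate 1 (0.0566) or d3_Ineff replicate 2 (0.0675), the day 6 call without d6_Eff replicate 1 or 2 or d6_Ineff replicate 2 (0.0529 to 0.0813) and the iPSC against d6_Eff call without d6_Eff replicate 1 or 2 or iPSC replicate 2 (0.0739 to 0.127), with adjusted p in brackets.

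Type IV collagen is also a product of parietal endoderm. Of 8 markers of parietal and primitive endoderm, Sox17 and Foxa2 had no reads in MEF or any sorted library. The list summed to 671 and 528 CPM in d3_Eff, 1418 and 1451 CPM in d3_Ineff, 386 and 349 CPM in d6_Eff, 1591 and 1732 CPM in d6_Ineff, and 6750.5 and 4959 CPM in MEF, most of it Sparc, which fibroblasts express too. Of the 6 tested, 2 were lower and none higher in d6_Eff than in d6_Ineff, and 1 was lower in d3_Eff than in d3_Ineff. Among all genes 9.25% were lower in d6_Eff and 0.24% in d3_Eff between gates. Against MEF, 1 was higher and 2 lower in d3_Eff, 1 and 1 in d3_Ineff, and 2 and 2 in iPSC. Of all genes, 18% and 18.6%, 15% and 15%, and 26% and 26.7% were called there. In iPSC the list summed to 194 and 197 CPM. The part of these markers in the type IV levels was not tested.

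Of the 6 type VI chains, 5 were tested. Of these, 4 were lower in d6_Eff than in d6_Ineff, and 1 was lower in each day 3 gate than in MEF. Among all genes 9.25% were lower in d6_Eff, 18.6% in d3_Eff and 15% in d3_Ineff, so the day 3 count was near those shares. Type VI microfibrils of connective tissue are built from Col6a1 (ENSMUSG00000001119), Col6a2 (ENSMUSG00000020241) and Col6a3 (ENSMUSG00000048126). Col6a1 had 972 and 269 CPM in MEF, 272 and 262 CPM in d3_Eff and 469.6 and 339 CPM in d3_Ineff. It had 23.1 and 15.0 CPM in d6_Eff, 141 and 154 CPM in d6_Ineff and 0.258 and 0.593 CPM in iPSC. The day 3 libraries lay close to or above MEF replicate 2 and below replicate 1, and the d6_Eff libraries lay below all day 3 and d6_Ineff libraries. Col6a1 was not called in d3_Eff (-1.22 ± 0.46, adjusted p = 0.0609) or d3_Ineff (-0.62 ± 0.46, adjusted p = 0.353) against MEF. It was lower in d6_Eff than in d3_Eff (-3.81 ± 0.51, adjusted p = 0.000921) and than in d6_Ineff (-2.95 ± 0.50, adjusted p = 0.00274), while d6_Ineff against d3_Ineff gave -1.45 ± 0.47 (adjusted p = 0.117).

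Col6a2 had 733 and 160.0 CPM in MEF, 193 and 199 CPM in d3_Eff and 266 and 197 CPM in d3_Ineff. It had 44.5 and 47.6 CPM in d6_Eff, 189 and 218 CPM in d6_Ineff and 0.387 and 1.78 CPM in iPSC. The d3_Eff and d3_Ineff libraries overlapped and lay between the MEF libraries, and the d6_Eff libraries lay below all libraries but those of iPSC. Like Col6a1, it was not called on day 3 against MEF (adjusted p = 0.128 in d3_Eff and 0.242 in d3_Ineff), and was lower in d6_Eff than in d6_Ineff (-2.14 ± 0.59, adjusted p = 0.0321) and than in d3_Eff (-2.09 ± 0.59, adjusted p = 0.0483). Col6a3 had 935 and 202 CPM in MEF, 73.2 and 49.6 CPM in d3_Eff and 150.2 and 105 CPM in d3_Ineff. It had 42.4 and 29.3 CPM in d6_Eff, 308 and 395 CPM in d6_Ineff and 0.172 and 0.461 CPM in iPSC. The d6_Ineff libraries lay between the MEF libraries, and all other libraries after MEF lay below both. Col6a3 was called lower on day 3 than in MEF, by a log2 fold change of -3.21 ± 0.58 (adjusted p = 0.00126, -1.70 without MEF replicate 1, -4.03 without MEF replicate 2) in d3_Eff and -2.16 ± 0.55 (adjusted p = 0.0128, -0.65 without MEF replicate 1, -2.94 without MEF replicate 2) in d3_Ineff. The difference between Col6a3 and its partners was not itself tested. Between the day 6 gates its log2 fold change was -3.29 ± 0.58 (adjusted p = 0.00367).

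The ratios between the type VI chains differed between groups. Reads of Col6a1 per read of Col6a2 were 1.32 to 1.76 in MEF and day 3 libraries, 0.519 and 0.315 in d6_Eff, 0.744 and 0.708 in d6_Ineff, and 0.667 and 0.333 in iPSC, where they rest on 6 to 27 reads. Reads of Col6a3 per read of Col6a2 were 1.28 and 1.26 in MEF, 0.378 and 0.249 in d3_Eff, 0.564 and 0.533 in d3_Ineff, 0.953 and 0.616 in d6_Eff, and 1.62 and 1.82 in d6_Ineff. The d6_Ineff libraries held the highest ratio, above that of MEF. Col6a1 and Col6a2 lie head to tail on chromosome 10. In iPSC all 3 chains were lower than in MEF, Col6a1 by a log2 fold change of -10.58 ± 0.74 (adjusted p = 7.76e-07, -9.38 without MEF replicate 1, -11.31 without MEF replicate 2, -11.20 without iPSC replicate 2), Col6a2 by a log2 fold change of -8.80 ± 0.83 (adjusted p = 6.34e-06, -7.35 without MEF replicate 1, -9.62 without MEF replicate 2, -7.97 without iPSC replicate 1, -10.15 without iPSC replicate 2) and Col6a3 by a log2 fold change of -10.90 ± 0.89 (adjusted p = 2.23e-06, -9.41 without MEF replicate 1, -11.69 without MEF replicate 2, -10.25 without iPSC replicate 1, -11.64 without iPSC replicate 2).

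**Figure D4:**
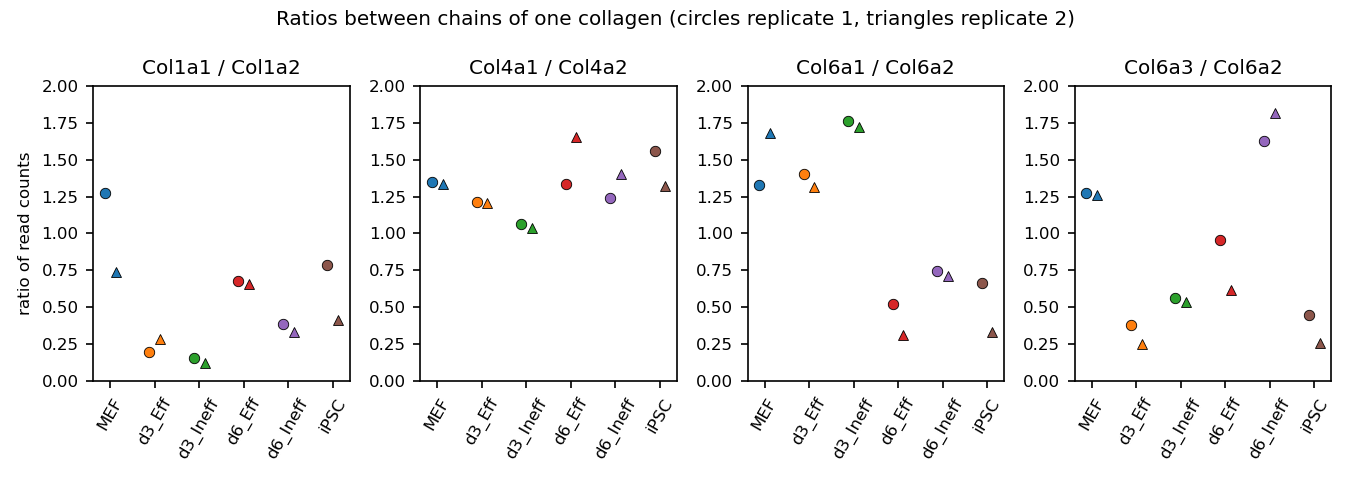
Ratio of read counts between chains of a collagen in every library, with circles for replicate 1 and triangles for replicate 2. The ratio Col4a1 to Col4a2 stays between 1.04 and 1.65, the ratio Col1a1 to Col1a2 is lowest on day 3 (0.119 to 0.287), and the ratio Col6a1 to Col6a2 is 1.32 to 1.76 in MEF and on day 3 and 0.315 to 0.744 later.

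The later type VI chains Col6a4, Col6a5 and Col6a6 lie next to each other on chromosome 9 and were scarce. Col6a5 had 0.516 and 0 CPM in MEF, 0.954 and 0.416 CPM in d3_Eff and 1.14 and 0.136 CPM in d3_Ineff. It had 0 and 0 CPM in d6_Eff, 2.03 and 1.24 CPM in d6_Ineff and 2.15 and 1.65 CPM in iPSC. The iPSC and d6_Ineff libraries overlapped and held its highest levels. With no reads in d6_Eff, Col6a5 was at least 21.5-fold lower there than in d6_Ineff (adjusted p = 0.0252) and at least 25.0-fold higher in iPSC than in d6_Eff (adjusted p = 0.0116). Col6a4 had no reads in MEF or on day 3 and 1.46 and 1.05 CPM in iPSC, at least 11.1-fold higher than in MEF (adjusted p = 0.0143). That call was lost without MEF replicate 1 or 2 or iPSC replicate 1 or 2 (0.0564 to 0.104) or without MEF replicate 2 and d6_Eff replicate 2 together (0.0536), with adjusted p in brackets, as were those of Col6a5 between day 6 gates without d6_Eff replicate 1 or 2 or d6_Ineff replicate 1 or 2 (0.0529 to 0.115) and between iPSC and d6_Eff without d6_Eff replicate 1 (0.0606) or d6_Eff replicate 2 (0.0522). Exons of Col6a4 overlap genes on the opposite strand by 289 bases. Leaving out a library lost the day 6 call of Col6a2 between gates without d3_Eff replicate 2, d6_Eff replicate 1 or 2 or d6_Ineff replicate 1 or 2 (0.0541 to 0.15), with adjusted p in brackets. Its call over time in the Eff gate was lost without d3_Eff replicate 1 or 2, d3_Ineff replicate 1 or 2, d6_Eff replicate 1 or 2 or d6_Ineff replicate 1 or 2 (0.0505 to 0.209). The d3_Ineff call of Col6a3 was lost without MEF replicate 1 (0.0916) or d3_Ineff replicate 2 (0.0922), or with only the groups compared in the fit (0.109), and the calls of Col6a1 between day 6 gates and over time were kept in all 12 refits.

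Of 9 FACIT chains, 7 were tested. Of these, Col12a1 and Col16a1 were lower in each day 3 gate than in MEF, and 1 was lower in d6_Eff than in d6_Ineff. Among all genes 18.6% were lower in d3_Eff, 15% in d3_Ineff and 9.25% in d6_Eff. In iPSC against MEF, 2 type IX chains were higher and 3 chains lower, namely Col12a1, Col14a1 and Col16a1. Of all genes, 26% were higher and 26.7% lower there, so the count of higher chains was near that share. Col12a1 (ENSMUSG00000032332) binds the surface of type I fibrils in tendon and skin. Col12a1 had 2315 and 535 CPM in MEF, 3.51 and 2.34 CPM in d3_Eff and 7.96 and 6.16 CPM in d3_Ineff. It had 8.86 and 3.41 CPM in d6_Eff, 18.8 and 23.1 CPM in d6_Ineff and 0.301 and 0 CPM in iPSC. Every library after MEF lay far below both MEF libraries. The log2 fold change of Col12a1 was -8.92 ± 0.84 (adjusted p = 1.43e-05, -7.49 without MEF replicate 1, -9.72 without MEF replicate 2) in d3_Eff and -7.66 ± 0.79 (adjusted p = 3.85e-05, -6.23 without MEF replicate 1, -8.43 without MEF replicate 2) in d3_Ineff against MEF. The day 6 gates did not overlap, and their difference of -1.75 ± 0.63 (adjusted p = 0.0915) was not called. Col16a1 had 202 and 23.2 CPM in MEF, 1.39 and 1.14 CPM in d3_Eff and 4.33 and 1.63 CPM in d3_Ineff. It had 1.43 and 0.352 CPM in d6_Eff, 11.4 and 9.49 CPM in d6_Ineff and 0.129 and 1.19 CPM in iPSC. The d6_Ineff libraries were the highest after MEF, and the d6_Eff libraries lay on either side of the d3_Eff ones. Col16a1 (ENSMUSG00000040690), found beside fibrils of skin and cartilage, was lower than in MEF by a log2 fold change of -6.47 ± 1.09 (adjusted p = 0.000786, -4.17 without MEF replicate 1, -7.41 without MEF replicate 2) in d3_Eff and -5.24 ± 1.01 (adjusted p = 0.00241, -2.94 without MEF replicate 1, -6.14 without MEF replicate 2, -6.12 without d3_Ineff replicate 1) in d3_Ineff, and lower in d6_Eff than in d6_Ineff by a log2 fold change of -3.48 ± 1.02 (adjusted p = 0.0431, -4.95 without d6_Eff replicate 1). That last call was lost without d3_Eff replicate 1 or 2, d6_Eff replicate 1 or 2 or d6_Ineff replicate 1 or 2 (0.0553 to 0.238), with adjusted p in brackets.

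Col9a2 had 0.774 and 0 CPM in MEF, 0.217 and 0.208 CPM in d3_Eff and 0.350 and 0.407 CPM in d3_Ineff. It had 0.757 and 0.411 CPM in d6_Eff, 2.09 and 1.68 CPM in d6_Ineff and 14.3 and 18.6 CPM in iPSC. Col9a2 (ENSMUSG00000028626) encodes a chain of type IX collagen, which coats type II fibrils in cartilage. Both iPSC libraries lay above all other libraries, and Col9a2 was higher in iPSC than in d6_Eff (4.78 ± 0.76, adjusted p = 0.000656) and than in MEF (5.07 ± 0.79, adjusted p = 0.000265, 4.34 without MEF replicate 2). Per kilobase it was the second collagen of iPSC after Col18a1, at 5.62 against 35.4 CPM per kilobase. Col9a3, another type IX chain, had 3.22 and 5.40 CPM in iPSC and 0.981 and 0.698 CPM in MEF (2.31 ± 0.61, adjusted p = 0.00775), a call lost without iPSC replicate 2 (0.0754) as adjusted p, and it shares 234 exonic bases with Tcfl5 on the opposite strand. Col9a1, the remaining chain of type IX, was too low to test. Of 8 chondrocyte markers, 7 had reads in each iPSC library, and Hapln1 had none there. The list summed to 16.5 and 20.6 CPM in iPSC, 16.7 and 8.93 CPM in d6_Eff, and 89.0 and 39.1 CPM in MEF. In iPSC, 2 were higher and 1 lower than in d6_Eff, against 13.6% and 15.9% of all genes. Against MEF, 1 was higher and 5 were lower, beside 26% and 26.7% of all genes. The part of these markers in the type IX levels was not tested.

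Col14a1 averaged 0.0215 ± 0.0304 CPM in iPSC, where it had a single read in 1 of 2 libraries, and 6.49 ± 4.04 CPM in MEF, and was called lower in iPSC (adjusted p = 0.01), a call lost without iPSC replicate 1 (0.0538) or iPSC replicate 2 (0.0652). Col20a1 and Col22a1 were called in no comparison. In each day 3 gate, 5 of the 7 FACIT chains tested were not called against MEF.

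The transmembrane chain Col17a1 (ENSMUSG00000025064), the hemidesmosome collagen of basal epithelia, was highest on day 6. Col17a1 had 0.619 and 0 CPM in MEF, 2.99 and 1.61 CPM in d3_Eff and 2.54 and 2.40 CPM in d3_Ineff. It had 46.8 and 73.5 CPM in d6_Eff, 12.3 and 16.4 CPM in d6_Ineff and 0.215 and 0.461 CPM in iPSC. Both d6_Eff libraries lay above all others, the d6_Ineff libraries came next, and the iPSC libraries lay within the range of the MEF libraries. Col17a1 was the 1 collagen called higher in d6_Eff than in d6_Ineff (2.06 ± 0.46, adjusted p = 0.0123). It was higher on day 6 than on day 3 in the Eff gate (4.69 ± 0.53, adjusted p = 0.000296) and in the Ineff gate (2.54 ± 0.49, adjusted p = 0.0159). On day 3 it was higher than in MEF, by 2.44 ± 0.66 (adjusted p = 0.0129, 1.79 without MEF replicate 2, 1.85 without d3_Eff replicate 1) in d3_Eff and 2.53 ± 0.65 (adjusted p = 0.0128, 1.91 without MEF replicate 2) in d3_Ineff. MEF replicate 2 had no reads of it. The day 3 gates differed by a log2 fold change of -0.09 ± 0.50 (adjusted p = 1.0), which was not called. The change of the gap between days was 2.15 ± 0.67 (adjusted p = 0.181) and not called. Col17a1 then fell in iPSC against d6_Eff (-7.53 ± 0.65, adjusted p = 8.62e-06) and was not called against MEF (-0.39 ± 0.82, adjusted p = 0.72).

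Of 5 keratinocyte markers, Krt5 and Krt1 had no reads in any day 6 library. The other 3, Krt10, Krt14 and Trp63, all had reads in both d6_Eff libraries. In the d6_Ineff libraries, 2 and 3 markers had reads. The list, mostly Krt10, summed to 6.33 and 6.64 CPM in d6_Eff and 8.52 and 5.94 CPM in d6_Ineff. Neither of the 2 keratinocyte markers tested was called between the day 6 gates. EpCAM, an epithelial surface protein, was the sorting marker of the Eff gate on day 6. Leaving out a library lost the day 6 call of Col17a1 without d6_Eff replicate 2 or d6_Ineff replicate 1 or 2 (0.0678 to 0.152), its higher level on day 6 than on day 3 in the Ineff gate without d3_Ineff replicate 1 or 2 or d6_Ineff replicate 2 (0.103 to 0.172) and the d3_Eff call against MEF without d3_Eff replicate 1 (0.0974), with adjusted p in brackets. With only the groups compared in the fit, the calls of Col17a1 against MEF were lost in d3_Eff (0.153) and d3_Ineff (0.155). The calls of a higher level in d6_Eff than in d3_Eff and a lower one in iPSC than in d6_Eff were kept in all 12 refits.

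Col13a1, found at adhesion sites such as the neuromuscular junction, had 2.62 and 3.36 CPM in iPSC and no reads in the other 10 libraries. It was at least 39.4-fold higher in iPSC than in d6_Eff (adjusted p = 0.0169) and at least 26.5-fold higher than in MEF (adjusted p = 0.0129). Without d6_Eff replicate 1 or 2 or iPSC replicate 1 or 2 (0.0582 to 0.102) the call against d6_Eff was lost, and without iPSC replicate 1 (0.064) or iPSC replicate 2 (0.0723) that against MEF, with adjusted p in brackets. DESeq2 called neither (0.117 against d6_Eff and 0.115 against MEF). Col23a1 had 0.671 and 0 CPM in MEF, 0.824 and 2.18 CPM in d3_Eff and 1.84 and 1.86 CPM in d3_Ineff. It had 0 and 0.881 CPM in d6_Eff, 0.464 and 0.997 CPM in d6_Ineff and 0.172 and 0.0659 CPM in iPSC. The day 3 gates overlapped, as did the day 6 gates. Col23a1 was called in no comparison, and Col25a1 was too low to test.

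The multiplexins Col15a1 and Col18a1, basement membrane zone collagens, release C-terminal fragments that include endostatin. Col15a1 had its highest levels in d6_Ineff and Col18a1 in iPSC and MEF replicate 1. Col15a1 had 31.5 and 12.8 CPM in MEF, 41.3 and 37.6 CPM in d3_Eff and 71.4 and 54.4 CPM in d3_Ineff. It had 13.1 and 13.3 CPM in d6_Eff, 112 and 124 CPM in d6_Ineff and 0.172 and 0 CPM in iPSC. The day 6 gates did not overlap, and the d6_Eff libraries lay within the range of the MEF libraries. Col15a1 (ENSMUSG00000028339) was higher in d3_Ineff than in MEF (1.48 ± 0.38, adjusted p = 0.0128, 2.31 without MEF replicate 1), and d3_Eff against MEF gave 0.81 ± 0.38 (adjusted p = 0.12). On day 6 it was lower in d6_Eff than in d6_Ineff (-3.16 ± 0.40, adjusted p = 0.000603) and than in d3_Eff (-1.58 ± 0.38, adjusted p = 0.0252), while d6_Ineff against d3_Ineff was 0.91 ± 0.37 (adjusted p = 0.219). Col15a1 was the 1 collagen for which the gap between gates differed between days, by a log2 fold change of -2.49 ± 0.53 (adjusted p = 0.0497). In iPSC it was lower than in d6_Eff by a log2 fold change of -6.92 ± 0.64 (adjusted p = 1.42e-05, -6.21 without iPSC replicate 2). It shares 14 exonic bases with Gm12426 on the opposite strand.

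Col18a1 had 231 and 39.2 CPM in MEF, 24.2 and 26.6 CPM in d3_Eff and 21.0 and 14.1 CPM in d3_Ineff. It had 85.0 and 109 CPM in d6_Eff, 95.3 and 100.3 CPM in d6_Ineff and 194 and 202 CPM in iPSC. The day 3 libraries lay below all others. Col18a1 (ENSMUSG00000001435) was lower than in MEF by a log2 fold change of -2.42 ± 0.58 (adjusted p = 0.0071, -0.61 without MEF replicate 1, -3.30 without MEF replicate 2) in d3_Eff and -2.95 ± 0.59 (adjusted p = 0.00324, -1.15 without MEF replicate 1, -3.79 without MEF replicate 2) in d3_Ineff. On day 6 the gates overlapped and differed by a log2 fold change of -0.01 ± 0.55 (adjusted p = 1.0). Col18a1 rose in d6_Ineff against d3_Ineff (2.48 ± 0.58, adjusted p = 0.0389), while d6_Eff against d3_Eff gave 1.93 ± 0.57 (adjusted p = 0.0602), which missed the threshold. In iPSC it was the highest collagen per kilobase and did not pass the test against d6_Eff (1.03 ± 0.55, adjusted p = 0.191) or MEF (0.54 ± 0.55, adjusted p = 0.434), with the iPSC libraries between the MEF libraries.

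Leaving out a library lost the change of the Col15a1 gap without d3_Eff replicate 1 or 2, d3_Ineff replicate 1 or 2, d6_Eff replicate 1 or 2 or d6_Ineff replicate 1 or 2 (0.114 to 0.219), its rise in d3_Ineff without d3_Ineff replicate 1 (0.0854) and its fall over time in the Eff gate without d3_Eff replicate 1 or 2 or d6_Eff replicate 1 or 2 (0.0963 to 0.14), with adjusted p in brackets. Its day 6 difference between gates was kept in all 12 refits. The d3_Eff call of Col18a1 against MEF was lost without d3_Eff replicate 2 (0.0523) or with only the groups compared in the fit (0.0523), and its rise in the Ineff gate without d3_Eff replicate 1 or 2, d3_Ineff replicate 1 or 2, d6_Eff replicate 1 or 2, d6_Ineff replicate 1 or 2 or iPSC replicate 1 or 2 (0.0505 to 0.304). With only the groups compared in the fit, the d3_Ineff calls against MEF of Col15a1 (0.0945) and Col18a1 (0.073) were lost.

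The short-chain collagens form hexagonal networks, type VIII in vessel walls and the cornea and type X in hypertrophic cartilage. Col8a1 had 485 and 344 CPM in MEF, 19.4 and 13.6 CPM in d3_Eff and 50.9 and 51.4 CPM in d3_Ineff. It had 6.99 and 2.70 CPM in d6_Eff, 32.6 and 29.9 CPM in d6_Ineff and 0.215 and 0 CPM in iPSC. On each day the Eff libraries lay below the Ineff ones, and all lay below MEF. Col8a1 (ENSMUSG00000068196) fell in d3_Eff (-4.65 ± 0.45, adjusted p = 1.62e-05) and d3_Ineff (-3.02 ± 0.41, adjusted p = 0.000263) against MEF and was lower in d6_Eff than in d6_Ineff (-2.67 ± 0.42, adjusted p = 0.00196, -3.62 without d6_Eff replicate 1). The day 3 gates did not overlap and differed by a log2 fold change of -1.63 ± 0.40 (adjusted p = 0.133). Col8a1 was also lower in d6_Eff than in d3_Eff (-1.75 ± 0.42, adjusted p = 0.0229, -2.68 without d6_Eff replicate 1), a call lost without d3_Eff replicate 1 or 2 or d6_Eff replicate 2 (0.0522 to 0.156).

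Col10a1 had 46.3 and 24.9 CPM in MEF, 1.26 and 1.30 CPM in d3_Eff and 1.05 and 1.09 CPM in d3_Ineff. It had 2.14 and 2.11 CPM in d6_Eff, 8.23 and 4.87 CPM in d6_Ineff and 0 and 0 CPM in iPSC. The day 3 libraries lay close together, far below MEF, and the d6_Ineff libraries above those of d6_Eff. Col10a1 (ENSMUSG00000039462), which shares 18 exonic bases with Nt5dc1 on the opposite strand, was lower than in MEF by a log2 fold change of -4.80 ± 0.46 (adjusted p = 2.79e-05) in d3_Eff and by a log2 fold change of -5.05 ± 0.47 (adjusted p = 3.19e-05) in d3_Ineff. It then was higher in d6_Ineff than in d3_Ineff (2.60 ± 0.43, adjusted p = 0.00985) and lower in d6_Eff than in d6_Ineff (-1.61 ± 0.41, adjusted p = 0.0269). With no reads, iPSC were at least 455.6-fold lower than MEF (adjusted p = 1.21e-06) and at least 27.2-fold lower than d6_Eff (adjusted p = 0.000125). Of 6 osteoblast markers, Bglap, Ibsp and Sp7 had at most 7 reads in any library. The list summed to 52.9 and 45.9 CPM in d3_Eff, 23.8 and 27.3 CPM in d3_Ineff, and 2758 and 3075 CPM in MEF, most of it Spp1. The list held 79.6 and 74.0 CPM in d6_Eff, 38.6 and 35.3 CPM in d6_Ineff, and 655 and 682 CPM in iPSC. Of the 3 tested, 1 was higher and 1 lower in each day 3 gate and in iPSC than in MEF. Between the day 6 gates, 1 was higher and none lower in d6_Eff. Among all genes 18% were higher and 18.6% lower in d3_Eff, and 15% and 15% in d3_Ineff. In iPSC the shares were 26% and 26.7%, and in d6_Eff 5.38% and 9.25%. The part of this list in the Col10a1 levels was not tested. Col8a2 had 11.8 and 3.21 CPM in MEF, 0.217 and 0 CPM in d3_Eff and 0.437 and 0 CPM in d3_Ineff. It had 1.20 and 0.176 CPM in d6_Eff, 3.77 and 3.07 CPM in d6_Ineff and 1.29 and 0.791 CPM in iPSC. Both MEF and d6_Ineff libraries lay above all others and overlapped each other. Col8a2 was lower than in MEF by a log2 fold change of -5.98 ± 1.45 (adjusted p = 0.00746, -4.72 without MEF replicate 1, -6.71 without MEF replicate 2, -5.09 without d3_Eff replicate 2) in d3_Eff and -5.07 ± 1.35 (adjusted p = 0.015, -3.81 without MEF replicate 1, -5.77 without MEF replicate 2, -4.11 without d3_Ineff replicate 2) in d3_Ineff and was called nowhere else. Leaving out a library lost the rise of Col10a1 in the Ineff gate without d3_Ineff replicate 1 or 2 or d6_Ineff replicate 1 (0.0666 to 0.106) and its day 6 call between gates without d6_Eff replicate 1 or 2 or d6_Ineff replicate 1 (0.097 to 0.151), with adjusted p in brackets. The calls of Col8a2 were lost without d3_Eff replicate 2 (0.0605) in d3_Eff and without d3_Ineff replicate 2 (0.0802) or with only the groups compared in the fit (0.0615) in d3_Ineff.

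Among the others, Col7a1 (ENSMUSG00000025650) forms the anchoring fibrils under the epidermis. Col7a1 had 81.5 and 6.84 CPM in MEF, 0 and 0.468 CPM in d3_Eff and 0.306 and 0.226 CPM in d3_Ineff. It had 0.713 and 0.529 CPM in d6_Eff, 0.174 and 0.399 CPM in d6_Ineff and 0.860 and 2.37 CPM in iPSC. Every library after MEF lay below both MEF libraries. It was lower than in MEF by a log2 fold change of -7.63 ± 1.31 (adjusted p = 0.000918, -4.86 without MEF replicate 1, -8.62 without MEF replicate 2, -6.62 without d3_Eff replicate 1) in d3_Eff and -7.35 ± 1.28 (adjusted p = 0.00131, -4.63 without MEF replicate 1, -8.29 without MEF replicate 2) in d3_Ineff, and by a log2 fold change of -4.82 ± 1.09 (adjusted p = 0.00315, -2.08 without MEF replicate 1, -5.77 without MEF replicate 2, -4.23 without iPSC replicate 1, -5.69 without iPSC replicate 2) in iPSC, a call lost without MEF replicate 1 (0.194). Col26a1 had 0.103 and 0 CPM in MEF, 0.0434 and 0 CPM in d3_Eff and 0 and 0 CPM in d3_Ineff. It had 0 and 0 CPM in d6_Eff, 2.09 and 2.95 CPM in d6_Ineff and 0.430 and 0.527 CPM in iPSC. The reads of Col26a1 were mainly in d6_Ineff and iPSC. It was at least 33.1-fold lower in d6_Eff than in d6_Ineff (adjusted p = 0.0125), at least 37.7-fold higher in d6_Ineff than in d3_Ineff (adjusted p = 0.0288) and at least 6.30-fold higher in iPSC than in d6_Eff (adjusted p = 0.0298). The gate call was lost without d6_Eff replicate 1 or 2 or d6_Ineff replicate 2 (0.0619 to 0.0688), with adjusted p in brackets. The call over time was lost without d3_Ineff replicate 1 or 2, d6_Ineff replicate 1 or 2 or iPSC replicate 1 or 2 (0.0622 to 0.219), and that in iPSC without d6_Eff replicate 1 or 2, d6_Ineff replicate 1 or 2 or iPSC replicate 1 or 2 (0.0514 to 0.118) or without MEF replicate 2 and d6_Eff replicate 2 together (0.0741). Col28a1 had at most 0.490 CPM as a group mean and was not tested.

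**Figure D5:**
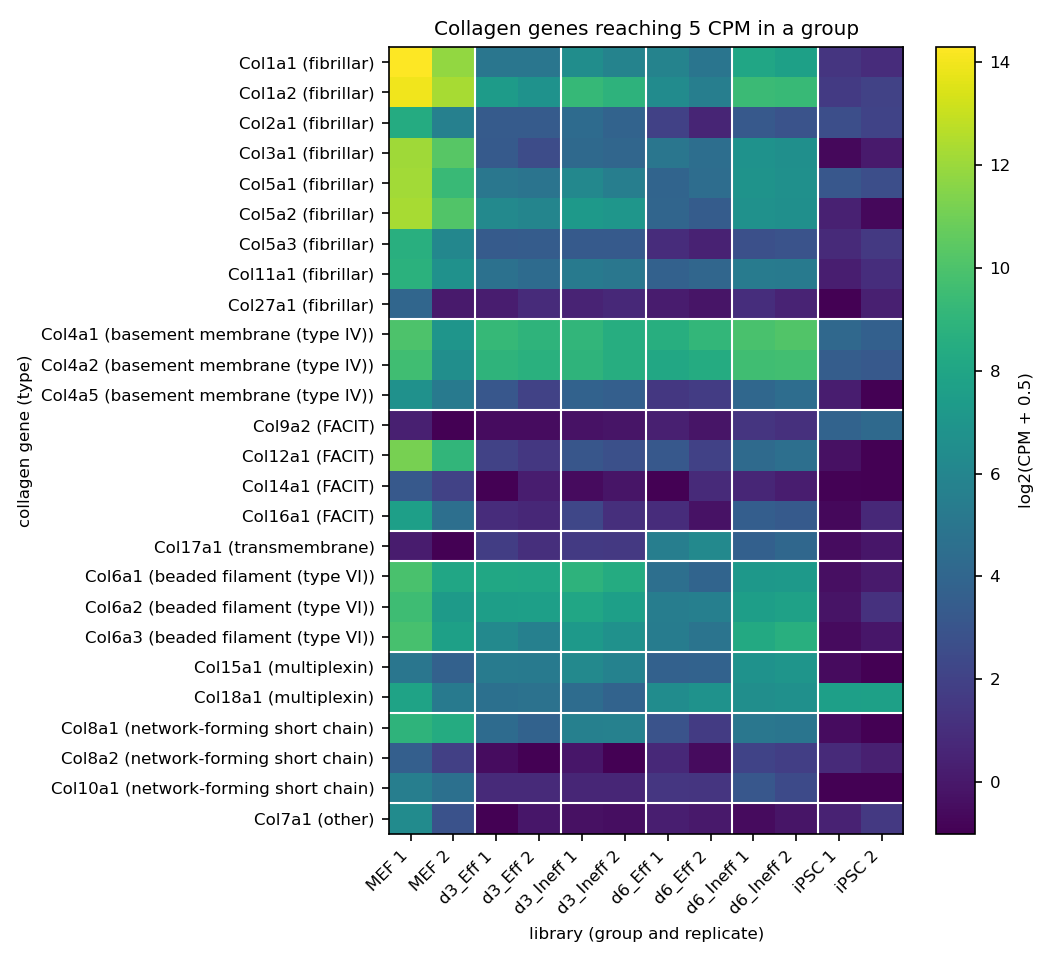
Heat map of log2(CPM + 0.5) for the 26 collagens that averaged at least 5 CPM in a group, with genes in rows by type and the 12 libraries in columns in the order of the course. Yellow is high and dark blue low; MEF replicate 2 lies below replicate 1 in all 24 collagens of at least 5 CPM there, and Col18a1 is the brightest gene in the iPSC columns (194 and 202 CPM).

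Most enzymes and chaperones of collagen synthesis were lower on day 3 than in MEF. Medium, dox, AA and sorting differed between these groups as well and cannot be told apart from the course. A list of 55 genes for collagen biosynthesis, receptors and degradation was followed, of which 48 were tested, 6 were too low and Mia3 had no matched symbol. Against MEF, d3_Eff had 2 higher and 40 lower, and d3_Ineff 2 higher and 37 lower, of 48 tested. Among all genes 18% were higher and 18.6% lower in d3_Eff, and 15% and 15% in d3_Ineff. Among 18 genes of chain folding and modification, 15 were lower in d3_Eff, led by adjusted p by the prolyl hydroxylase subunits P4ha1 (-4.74 ± 0.26, adjusted p = 3.81e-07), P4ha2 (-5.73 ± 0.34, adjusted p = 7.35e-07, -5.13 without MEF replicate 1) and P4hb (-2.32 ± 0.18, adjusted p = 4.43e-06). Among 18 for secretion, propeptide removal and crosslinking, 16 were tested and 13 were lower. The lysyl oxidases Lox (-9.71 ± 0.78, adjusted p = 5.21e-06, -11.25 without d3_Eff replicate 1, -9.01 without d3_Eff replicate 2) and Loxl2 (-5.77 ± 0.42, adjusted p = 2.65e-06, -4.90 without MEF replicate 1, -6.40 without MEF replicate 2) and the coat protein gene Sec24d (-4.56 ± 0.35, adjusted p = 3.89e-06) had the smallest adjusted p. Lox averaged 5.90 ± 5.26 CPM in d3_Eff and 4993 ± 202 CPM in MEF. The 2 higher in both gates were Colgalt2, a collagen galactosyltransferase, with a d3_Eff value of 4.55 ± 0.83 (adjusted p = 0.00132, 3.86 without MEF replicate 2), and Pcolce2, an enhancer of procollagen C-proteinase, with 1.58 ± 0.21 (adjusted p = 0.000172). The d3_Ineff call of Colgalt2 was lost with only the groups compared in the fit (adjusted p = 0.0581). Of 11 receptors, 8 were tested and 7 were lower in d3_Eff, with the endocytic receptor Mrc2 at -3.91 ± 0.46 (adjusted p = 6.37e-05, -2.88 without MEF replicate 1, -4.60 without MEF replicate 2), the integrin chain Itgb1 at -1.71 ± 0.24 (adjusted p = 0.000208) and its partner Itga11 lower too (adjusted p = 0.000314). Itga11 had 2 and 0 reads in d3_Eff and 3469 and 185 reads in MEF, a pooled level 2912-fold lower in d3_Eff (95% exact interval 806 to 24056, counting error only). The MEF libraries held 179 and 25.8 CPM. Its fitted log2 fold change was -10.91 (-8.91 without MEF replicate 1, -11.82 without MEF replicate 2, -10.11 without d3_Eff replicate 2). Of 8 genes of collagen degradation, 6 were tested and 5 were lower, led by the cathepsin gene Ctsk (-5.18 ± 0.39, adjusted p = 5.78e-06), Mmp2 (-2.84 ± 0.37, adjusted p = 0.000142, -1.97 without MEF replicate 1, -3.48 without MEF replicate 2) and Mmp14 (-2.80 ± 0.41, adjusted p = 0.000299, -1.71 without MEF replicate 1, -3.51 without MEF replicate 2).

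Between the day 6 gates, 1 of the 48 tested was higher and 28 were lower in d6_Eff, against 5.38% higher and 9.25% lower among all genes. P3h4, which works with the lysyl hydroxylase complex, was lower by a log2 fold change of -1.48 ± 0.17 (adjusted p = 0.000287), P4ha1 by a log2 fold change of -1.97 ± 0.23 (adjusted p = 0.000386) and Pcolce, the main C-proteinase enhancer, by a log2 fold change of -2.97 ± 0.36 (adjusted p = 0.000439, -3.93 without d6_Eff replicate 1). The discoidin domain receptors Ddr1 (-2.47 ± 0.35, adjusted p = 0.00106) and Ddr2 (-1.84 ± 0.39, adjusted p = 0.00904), which bind fibrillar collagen, were lower as well. The 1 higher gene was Adgrg1, an adhesion receptor for type III collagen (5.54 ± 1.31, adjusted p = 0.0187, 4.62 without d6_Ineff replicate 1), at 6.43 ± 1.29 CPM in d6_Eff and 0.120 ± 0.169 CPM in d6_Ineff. The call of Adgrg1 was lost without d6_Eff replicate 2 (0.0811) or d6_Ineff replicate 1 (0.103), and that of Ddr2 without d6_Eff replicate 2 (0.0905), with adjusted p in brackets. Between the day 3 gates edgeR called none of the 48 tested, with 14 at an unadjusted p under 0.05, and DESeq2 called 6. Of the 48 tested, P3h4 was the 1 whose gap was called as different between days (-1.12 ± 0.23, adjusted p = 0.0424). That count was near the 1.39% of all genes, and the call was lost in 10 of the 12 refits without 1 library.

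Against d6_Eff, 7 of the 48 tested were higher and 17 lower in iPSC, where 13.6% of all genes were higher and 15.9% lower, so the count of higher genes was near that of all genes. P4ha1 averaged 126 ± 11.5 CPM in iPSC and 16.3 ± 5.18 CPM in d6_Eff (2.96 ± 0.24, adjusted p = 5.92e-06), and P4ha2 (3.21 ± 0.33, adjusted p = 3.05e-05), Loxl2 (3.10 ± 0.38, adjusted p = 0.000121) and Pcolce (2.25 ± 0.35, adjusted p = 0.0006, 3.16 without d6_Eff replicate 1) were higher too. Serpinh1, which encodes HSP47, was lower in iPSC than in d6_Eff (-2.86 ± 0.20, adjusted p = 1.95e-06) and than in MEF (-5.11 ± 0.22, adjusted p = 3.69e-08). Against MEF, P3h4 gave -4.30 ± 0.19 (adjusted p = 3.87e-08) and Fkbp10, a collagen foldase, -4.62 ± 0.27 (adjusted p = 2.16e-07). Of the 48 tested, 40 were lower in iPSC than in MEF, against 26.7% of all genes, and 8 were not called.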

How the data were processed

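Poly-A RNA was sequenced from 12 libraries with a directional kit, per the labels' protocols, and the submitters' processing notes name STAR 2.3.0, Picard 1.100, HTSeq 0.6.0 and mm9. The deposited files hold raw counts per Ensembl gene, and their names mark them as not stranded. Gene symbols, types and lengths came from GENCODE M21, which gave a symbol to 32860 of 37583 IDs (87.4%) and to all 44 collagens. Rows that name no gene were left out of library sizes. Reads outside genes were 5.10% to 47.2% of uniquely placed reads. In R 4.3.3, genes were filtered with filterByExpr and scaled by TMM, and all 12 libraries were fitted together with edgeR 4.0.16 (quasi-likelihood, prior count 0.125, 6 residual degrees of freedom). P-values were adjusted over 16240 genes. DESeq2 1.42.0, RLE scaling, no filter, the groups compared alone, a replicate block and each library left out were alternatives. Collagens of at least 5 CPM in a group mean were described by name, with every library shown for those called between gates or in the change of the gap and for the 3 highest of each type per kilobase. From each pathway list up to 3 called genes per direction, by adjusted p, were named. Called collagens under 5 CPM were named after their values were seen. The procedure was tested on simulated data. The collagens and all lists were chosen with earlier results of these data known.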

Additional observations from a re-analysis of the deposited data

Results flagged for a closer look

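The gap between the sorted gates differed between days in 1 of the 36 collagens and 1 of the 48 pathway genes tested, against 1.39% of all genes, by edgeR's quasi-likelihood test of the difference itself. Both counts were near that share. The sort markers of day 3 and day 6 differed too and cannot be told apart from time. For Col15a1, the log2 difference of d6_Eff against d6_Ineff minus that of d3_Eff against d3_Ineff was -2.49 ± 0.534 (SE, adjusted p = 0.0497), with both d6_Eff libraries below both d6_Ineff libraries and both d3_Eff libraries below both d3_Ineff libraries. For P3h4 it was -1.12 ± 0.229 (SE, adjusted p = 0.0424). The Col15a1 call was lost in each refit without 1 of the 8 day 3 and day 6 libraries. That of P3h4 was lost in 10 of the 12 refits without 1 library. Of the 53 cell type markers tested, 3 were called in the same test. The fibroblast markers Vim and Prrx1 gave -2.49 ± 0.318 (SE, adjusted p = 0.00663) and -2.29 ± 0.34 (SE, adjusted p = 0.0132), and the pluripotency marker Nanog gave 2.39 ± 0.512 (SE, adjusted p = 0.0497).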

How the results depend on the processing

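No called fold change of a collagen reversed under any alternative. Most single-library refits left out a library of neither group compared. The pooled totals that follow thus dilute the losses that came from leaving out a compared library. Of 1872 alternative values of the 104 called fold changes, 1758 stayed past the threshold and 114 did not, 105 of these with a single library left out and 9 with the groups compared alone. Of 3542 alternative values of the 197 called fold changes of pathway genes and of collagens under 5 CPM, 268 were no longer past the threshold and 0 reversed. Counts of called collagens ranged over single-library refits from 17 to 26 for d3_Eff against MEF, 16 to 25 for d3_Ineff against MEF, 0 to 7 between the day 3 gates, 5 to 23 between the day 6 gates, 2 to 15 for d6_Eff against d3_Eff, 0 to 17 for d6_Ineff against d3_Ineff, 16 to 23 for iPSC against d6_Eff, 22 to 29 for iPSC against MEF, and 0 to 12 for the change of the gap. In the order day 3 gates, d6_Eff against d3_Eff, d6_Ineff against d3_Ineff and change of the gap, the counts of 0, 7, 5 and 1 became 8, 16, 17 and 15 with no filter, 10, 14, 18 and 12 with the groups compared alone, 2, 12, 10 and 5 with DESeq2, and 8, 15, 19 and 9 without MEF replicate 2 and d6_Eff replicate 2, an alternative chosen after seeing the data. The cause was not tested. Deviations of same-numbered libraries from their group means correlated at -0.101 to 0.213 over 15 pairs of groups. With 2 libraries a group, this cannot show whether same-numbered libraries share a culture or sort, and the labels do not say. With a replicate block the counts were 19, 19, 0, 19, 10, 5, 19, 27 and 1 in the order of the comparisons above. Under the block, Col4a6 in iPSC against MEF (adjusted p = 0.0628), Col26a1 in d6_Ineff against d3_Ineff (0.0501) and in iPSC against d6_Eff (0.0508), and the change of the P3h4 gap (0.0513) were not called. A refit that leaves 1 library in a group assumes that it varies like the others.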
